A study of Mus musculus with 43 samples.

Results

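The comparison of Mock with Pre-FACS cells asked what holding a cell suspension on the bench did to its transcriptome when no instrument was involved. It was made with 6 of the 43 libraries of the series, 3 Mock and 3 Pre-FACS libraries, chosen by their labels and not by any measured value. The cells were PD798, 1 pancreatic ductal adenocarcinoma line grown from a tumor of a KPCY mouse (a model in which Pdx1-cre, active in the pancreatic lineage, acts on alleles that include Rosa YFP/YFP for a fluorescent label and p53 L/+ for loss of the tumor suppressor). All groups used here share this genotype and were grown with 10% serum for 48 to 72 h until dissociated. Pre-FACS cells were set aside before the sort and never sorted. Mock cells waited on the bench at room temperature, in the buffer used for staining, while the other cells were processed. The sources used here do not give how long, nor what Pre-FACS cells had been exposed to before they were set aside. Holding time, temperature and buffer therefore cannot be told apart in this comparison. The 3 Pre-enriched libraries came from cells that passed the enrichment device and then the sorter, in a preparation that held red cell lysis buffer and magnetic particles. The 3 FACS-only libraries came from the same preparation put through a BD Influx sorter but not the enrichment device, and complete the 12 libraries of the processing experiment. A general label mentions spiking into mouse blood, which the study's description of these 4 conditions does not.

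Each library was made from bulk RNA and is given as TPM (transcripts per 1000000 transcripts), a level corrected for transcript length and scaled to the same total in each library, so that neither read depth nor counting error can be recovered. Of 13845 genes in the table, 12159 reached 1 TPM in at least 3 of the 12 libraries and were tested. Between 11733 and 11841 genes reached 1 TPM in a Mock library and between 11808 and 11828 in a Pre-FACS library. Differences are Mock minus Pre-FACS on the log2(TPM + 1) scale, which understates the change of low genes, and tests are limma contrasts with Benjamini-Hochberg adjusted p-values and a threshold of 0.05. No source says that the 3 libraries of a condition came from separate cultures, so p-values measure the spread between these libraries, which may be technical. In bulk RNA, fewer cells expressing a gene and less RNA per cell cannot be told apart.

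The libraries had the markers of a ductal epithelial line. Krt8 and Krt18, the keratins of simple epithelia, averaged 7479 ± 397 and 8874 ± 399 TPM in Mock and 7036 ± 521 and 8694 ± 370 TPM in Pre-FACS libraries (SD, n = 3 each), and the adhesion protein Cdh1, named after its values were seen, lay between 979 and 1029 TPM in all 6. The 17 epithelial and ductal markers tested summed to 28256 ± 737 TPM in Mock and 27563 ± 1071 TPM in Pre-FACS libraries (SD, n = 3), with a median difference of 0.025. Markers of other cells were low with 1 exception. Ptprc, the pan-leukocyte phosphatase CD45, did not exceed 0.556 TPM in any of the 6 libraries, and Laptm5 did not exceed 0.383 TPM, both too low to be tested and named after their values were seen. Of 20 leukocyte markers 5 were in the table, and their sum of 330 ± 8.23 TPM in Mock and 344 ± 12.9 TPM in Pre-FACS libraries was nearly all Cd14, at 320 ± 7.54 and 332 ± 13.2 TPM. Of 13 erythroid and platelet markers 4 were in the table and summed to 3.46 ± 1.19 and 4.40 ± 0.981 TPM, mostly Ppbp (a platelet chemokine) at 2.49 and 2.61 TPM. The globin genes were not analysed here. Fibroblast and endothelial markers (4 of 13 in the table) summed to 1.95 ± 0.218 TPM in Mock and 1.94 ± 0.395 TPM in Pre-FACS, mostly the collagen gene Col1a1 at 1.48 and 1.41 TPM, and acinar and endocrine markers (3 of 15) to 14.4 ± 2.56 and 15.4 ± 3.58 TPM, mostly the elastase Cela1 at 13.1 and 13.4 TPM, with the trypsinogen Prss2 at 1.06 and 1.64 TPM.

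The only gene called between the conditions, Atf4, belongs to the integrated stress response. In this pathway, kinases that sense unfolded protein, amino acid shortage, double-stranded RNA or heme shortage phosphorylate the translation factor eIF2, which lowers protein synthesis in general while the mRNA of the transcription factor Atf4 is translated more. ATF4 protein then induces genes of amino acid supply, tRNA charging and redox balance, and Ppp1r15a (GADD34), which brings a phosphatase to eIF2 and closes the loop. Other rapid responses of cells are the immediate-early genes, which need no new protein to be transcribed, and the NF-kB pathway, whose inhibitor Nfkbia (IkBa) and deubiquitinase Tnfaip3 (A20) are among its own targets.

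The promoters of Atf4 and of the other genes with the lowest p-values among those higher in Mock were read from the RefSeq table for GRCm38.p6, the assembly of mm10, as the 250 bases before the first-listed transcription start. An entry was found for 9 of the 10 genes of lowest p that were higher in Mock and for 8 of the 10 that were lower. On either strand, the NF-kB consensus decamer occurs in 7.01% of the 27025 promoters of the table, the cAMP response element TGACGTCA in 1.62%, the C/EBP-ATF element TGATGNAA in 3.53%, the AP-1 element TGANTCA in 6.87% and the E-box CACGTG in 6.05%. Among the 9277 promoters of genes tested here the shares are 8.89%, 2.91%, 1.98%, 4.40% and 8.61%. The 5 shown are that of Atf4, the only gene called, and those of the 4 higher genes with a match to the NF-kB consensus or the cAMP response element, which is in capitals; sequences run 5′ to 3′ on the strand of the gene.
Atf4, chr15:80254934-80255183, plus strand: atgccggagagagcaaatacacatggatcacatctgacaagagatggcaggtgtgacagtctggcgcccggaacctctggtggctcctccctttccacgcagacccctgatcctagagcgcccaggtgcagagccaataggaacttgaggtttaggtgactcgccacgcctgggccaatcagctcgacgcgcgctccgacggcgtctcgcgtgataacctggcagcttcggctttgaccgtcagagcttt
Nfkbia, chr12:55492648-55492897, minus strand: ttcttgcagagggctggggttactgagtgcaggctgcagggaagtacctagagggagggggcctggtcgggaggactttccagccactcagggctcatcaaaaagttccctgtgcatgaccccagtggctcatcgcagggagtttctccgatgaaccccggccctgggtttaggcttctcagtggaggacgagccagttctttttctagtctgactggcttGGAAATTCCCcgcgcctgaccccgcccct
Tnfaip3, chr10:19015411-19015660, minus strand: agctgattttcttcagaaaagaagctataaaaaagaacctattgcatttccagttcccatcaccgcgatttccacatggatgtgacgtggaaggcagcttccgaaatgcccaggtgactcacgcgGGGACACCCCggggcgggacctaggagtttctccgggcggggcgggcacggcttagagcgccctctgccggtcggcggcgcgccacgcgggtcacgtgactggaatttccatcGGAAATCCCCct
Areg, chr5:91139349-91139598, plus strand: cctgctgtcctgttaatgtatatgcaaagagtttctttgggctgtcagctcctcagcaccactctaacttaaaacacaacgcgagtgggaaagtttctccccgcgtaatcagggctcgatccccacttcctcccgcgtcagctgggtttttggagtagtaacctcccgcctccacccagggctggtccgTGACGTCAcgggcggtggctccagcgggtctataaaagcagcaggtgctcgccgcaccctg
Ttc1, chr11:43748009-43748258, minus strand: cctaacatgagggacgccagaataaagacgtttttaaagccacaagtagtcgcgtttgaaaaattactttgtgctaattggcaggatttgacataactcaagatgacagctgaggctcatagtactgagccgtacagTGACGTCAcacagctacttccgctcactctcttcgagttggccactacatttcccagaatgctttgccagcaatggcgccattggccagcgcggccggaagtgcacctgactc

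None of the 5 motifs occurs in the Atf4 window, which is why it has no capitals. The Tnfaip3 window holds 2 matches to the NF-kB consensus, 1 near its middle and 1 beside the start site, and also 1 to the AP-1 element and 1 to the E-box, not capitalized here. The Rab10os window holds a match to the E-box and is not shown. No printed match overlaps a match to another of the motifs. Among the 8 lower genes with an entry, Yod1 alone had a match, 1 to the C/EBP-ATF element and 1 to the AP-1 element. These matches are descriptions of letters and not sites shown to be bound.

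Atf4 was higher in Mock than in Pre-FACS cells and was the only gene of 12159 called (0.00822%). The gene (ENSMUSG00000042406) lies on the plus strand of mm10 at chr15:80255184-80257541. Its level was 754.1, 754.2 and 723.8 TPM in the 3 Mock libraries and 600.5, 582.5 and 578.9 TPM in the 3 Pre-FACS libraries. All Mock libraries were above all Pre-FACS libraries, and the gap between the groups was wider than the range within either. The mean was 26.7% higher in Mock (744 ± 17.5 against 587 ± 11.5 TPM, SD, n = 3 each), a difference of 0.34 (SE 0.0428, 95% interval 0.25 to 0.43, limma adjusted p = 0.00755). An exact two-sided permutation test of these 6 values gave p = 0.1, the smallest that 3 libraries against 3 allow. The limma call depended on how the spread was estimated and on the libraries used. With the 6 libraries alone the difference was the same and the adjusted p was 0.175, with all 12 in limma without the trend it was 0.358, and without the 4 libraries numbered 3, an alternative chosen after seeing the data, it was 0.225. The call was also lost without Mock replicate 1 (adjusted p = 0.113), Mock replicate 2 (0.10), Pre-FACS replicate 2 (0.0916) or Pre-FACS replicate 3 (0.0723), while the difference stayed between 0.33 and 0.36 whichever library was left out.

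**Figure D1:**
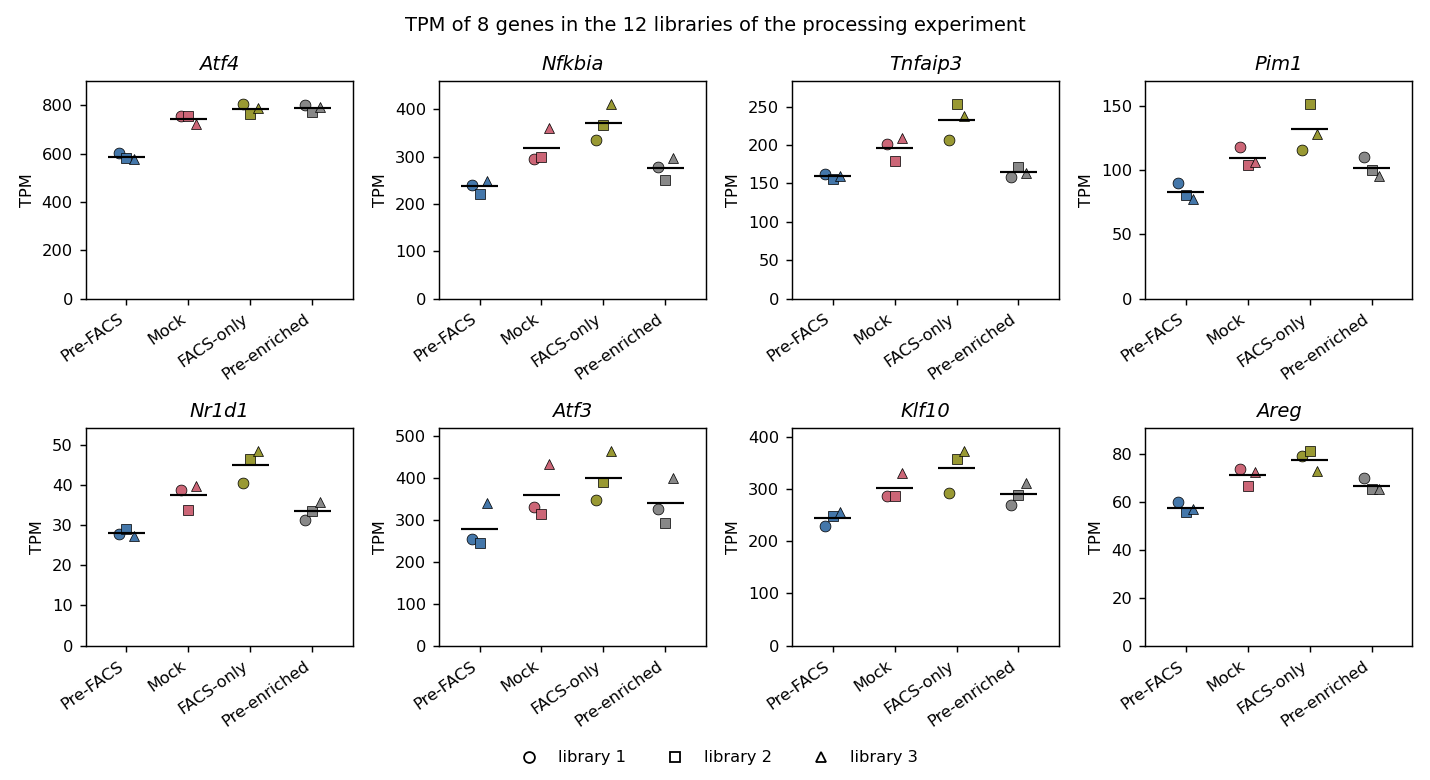
TPM (vertical axes, from 0) of 8 genes in the 12 libraries, with 3 libraries per condition as points whose shape gives the library number and the mean as a bar. For Atf4 the Mock libraries sit between 723.8 and 754.2 TPM, above the Pre-FACS libraries (578.9 to 600.5 TPM) and below both sorted conditions; for Atf3 the library numbered 3 is the highest in every condition.

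In sorted cells Atf4 was 803.8, 764.6 and 788.9 TPM in FACS-only and 802.4, 770.9 and 792.7 TPM in Pre-enriched libraries. All of these lay above the 3 Mock libraries. Against Mock, the difference was 0.08 for FACS-only (95% interval -0.01 to 0.17, adjusted p = 0.922) and 0.08 for Pre-enriched cells (95% interval -0.01 to 0.17, adjusted p = 0.686). Neither passed the test, and the intervals leave room for a further difference of up to 0.17.

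Outside Atf4 the lowest adjusted p was 0.627. Unadjusted p-values under 0.05 were found for 551 genes (4.53%), 271 higher (2.23%) and 280 lower (2.3%) in Mock. The 3 Mock libraries were all above the 3 Pre-FACS libraries for 599 genes (4.93%) and all below them for 536 (4.41%), shares that are the background of every count of separate groups below. Groups counted as separate can lie very close, as for Sdf2l1, with 77.03 TPM in Mock replicate 2 and 77.24 TPM in Pre-FACS replicate 3. Over all genes the median difference was -0.0046 and 48.5% were higher in Mock. Pearson's r across genes between a Mock and a Pre-FACS library averaged 0.99036 over 9 pairs, against 0.99047 within Mock and 0.99004 within Pre-FACS (3 pairs each), where genes are not independent replicates. The mean between the conditions thus lay between the means within them.

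The size of change that could have been missed depended on the level of the gene. At 100 TPM or more the median half-width of the 95% interval was 0.136 (2351 genes), and for 98.7% of these genes the interval lay within 0.5 of 0 in either direction. At 10 to 100 TPM the median half-width was 0.227 (6600 genes), and 91.2% lay within 0.5. At 1 to 10 TPM it was 0.456 (2879 genes) and under 1 TPM 0.600 (329 genes), with 27.0% and 0% within 0.5. Over all genes 97.1% of intervals lay within 1. Of the 225 genes that differed by more than 0.5 in either direction, 2 were at 100 TPM or more.

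Among genes higher in Mock, the 10 with the lowest p-values included Atf4 and 9 whose differences did not pass adjustment (adjusted p between 0.627 and 0.837). Nfkbia was 294, 299.6 and 359.8 TPM in Mock and 241, 221 and 249 TPM in Pre-FACS libraries, a difference of 0.42 (SE 0.0874). Its Mock libraries did not overlap the Pre-FACS libraries, and Mock replicate 3 stood above the other Mock libraries. Tnfaip3 was 201, 179.8 and 209 TPM against 162, 156 and 159 TPM (0.30, SE 0.073). Pim1, a serine/threonine kinase of growth factor and cytokine signaling, was 118, 104 and 106 TPM against 90.1, 81.0 and 77.3 TPM (0.40, SE 0.0929). Nr1d1 (REV-ERBa), the heme-binding repressor of the clock, was 38.8, 33.8 and 39.8 TPM against 27.8, 29.0 and 27.2 TPM (0.40, SE 0.0944). In each of these 3 genes the groups were apart. Areg, an EGF-family growth factor, was 73.8, 66.6 and 72.5 TPM against 60.1, 55.6 and 57.0 TPM (0.30, SE 0.0698). Ttc1, a tetratricopeptide-repeat protein, differed by 0.34 (SE 0.0709), Stard13 by 0.72 (SE 0.169) at 7.99 against 4.47 TPM, and the antisense RNA Rab10os by 0.50 (SE 0.125) at 14.6 against 10.0 TPM. Snord55 had the largest difference of the 10, 1.63 (SE 0.417), with 5.15, 8.38 and 15.2 TPM in Mock and 1.65, 1.70 and 3.42 TPM in Pre-FACS libraries. It is a small nucleolar RNA that lies in a host gene and is itself not polyadenylated, so its reads may be shared with the host transcript.

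The 10 lower genes of lowest p were mostly of low level, and none passed adjustment (adjusted p between 0.627 and 0.844). Fv1, a retroviral restriction factor, was 4.76, 5.87 and 6.57 TPM in Mock and 10.1, 9.34 and 11.3 TPM in Pre-FACS libraries (-0.75, SE 0.161). Yod1, a deubiquitinase of protein quality control, was 4.55, 4.61 and 4.32 TPM against 7.95, 8.85 and 6.34 TPM (-0.65, SE 0.155). Cdkn2a, the locus of the cell cycle inhibitors p16 and p19ARF, was 79.5, 85.8 and 82.4 TPM against 99.8, 101 and 99.98 TPM (-0.28, SE 0.072). The groups of these 3 genes did not overlap, with Mock below. Arpc1a, a subunit of the actin-nucleating Arp2/3 complex, differed by -0.27 (SE 0.0687), the autophagy gene Atg16l1 by -0.42 (SE 0.109), Daglb, a diacylglycerol lipase, by -0.47 (SE 0.11) and the predicted gene Gm10451 by -0.58 (SE 0.128). Hist1h3e (-1.29), Agt (-0.94) and Tekt2 (-0.95) averaged 0.188, 0.668 and 0.148 TPM in Mock against 1.97, 2.17 and 1.24 TPM in Pre-FACS libraries. At such levels the added pseudocount of 1 sets the size, and Hist1h3e also shares much of its sequence with other histone genes. Since these 20 genes were ordered by the p-values of this contrast, the order is a description.

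**Figure D2:**
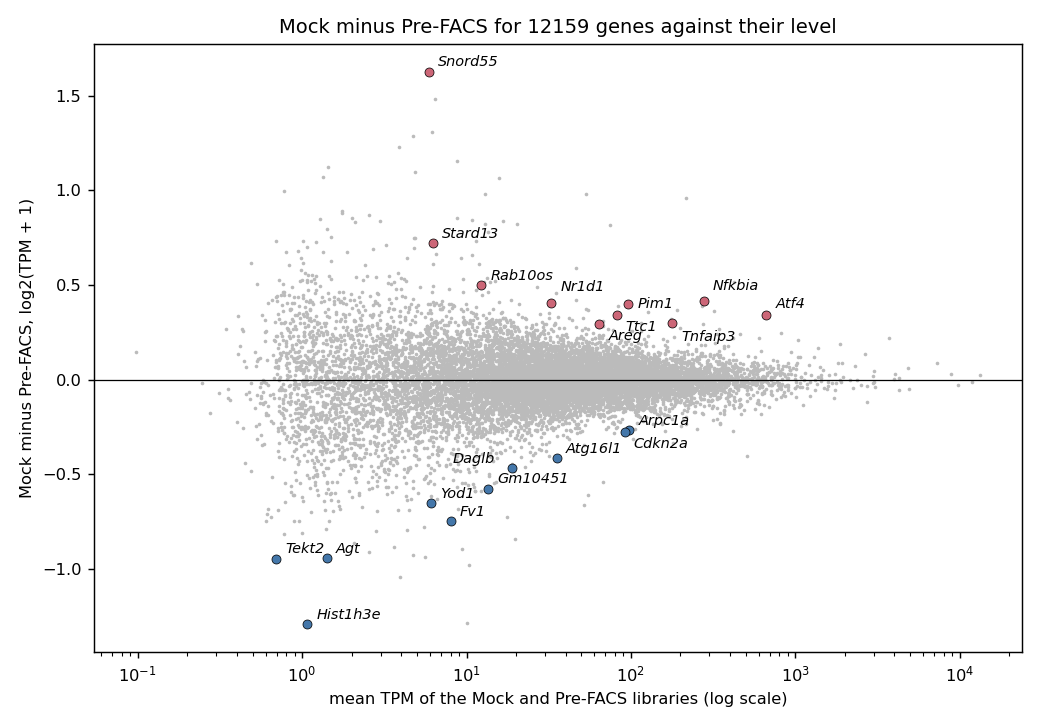
Mock minus Pre-FACS on the log2(TPM + 1) scale (vertical) against the mean TPM of the 6 libraries (horizontal, log scale) for 12159 genes (grey), with the 10 genes of lowest p in each direction colored and named. The scatter narrows with level; Atf4, at 744 TPM in Mock, lies at 0.34 where most genes of its level are near 0, and Snord55 lies highest at 1.63.

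Genes around Atf4 were followed in the order of the pathway. Of 13 genes of the eIF2 sensors, eIF2 and eIF2B subunits and phosphatase, 6 were higher in Mock and the median difference was -0.0063. The sensors Eif2ak1, Eif2ak3 (PERK) and Eif2ak4 (GCN2), named after their values were seen, differed by -0.05, -0.08 and -0.01. Eif2ak2 (PKR), the sensor of double-stranded RNA, was 11.2, 13.3 and 14.3 TPM in Mock and 15.8, 20.3 and 16.6 TPM in Pre-FACS libraries (-0.41, SE 0.157, adjusted p = 0.997), with all Mock libraries below. Ppp1r15a was 226, 189 and 229.7 TPM against 172, 142 and 186 TPM (0.37, SE 0.11, adjusted p = 0.936), and its Mock libraries were all above the Pre-FACS libraries. The subunit Eif2s2 differed by 0.14 (SE 0.0633), and Eif2s1, the phosphorylated subunit and the most abundant of the list, by 0.01 (SE 0.0481).

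Of 11 partners and transcription factors of the ATF4 group, 6 were higher and the median was 0.014 (0.063 without Pre-FACS replicate 1). Besides Atf4, Atf5 had separate groups, at 5.45, 5.51 and 4.28 TPM in Mock and 3.28, 3.93 and 4.01 TPM in Pre-FACS libraries (0.35, SE 0.227). Atf3, Cebpb and Ddit3 are named after their values were seen. Atf3, a stress-induced member of the family that is also an immediate-early gene, was 331, 314 and 433 TPM against 254, 245 and 339.9 TPM (0.36, SE 0.143). The groups of Atf3 overlapped, because Pre-FACS replicate 3 was above the Mock libraries numbered 1 and 2. Cebpb, a dimer partner of ATF4, differed by 0.15 (SE 0.064). Ddit3 (CHOP), the factor tied to death under lasting stress, was 65.5, 57.3 and 53.2 TPM against 74.6, 53.5 and 58.5 TPM (-0.07, SE 0.119).

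Of 40 known targets of ATF4, 29 were higher in Mock (72.5%, against 48.5% of all genes) with a median of 0.049. None of the targets passed the test (against 0.00822% of all genes). Unadjusted p-values under 0.05 were found for 4 of them, all higher (against 2.23% of all genes), and all Mock libraries were above all Pre-FACS libraries for 6 (against 4.93% of all genes) and below for 0 (against 4.41%). These were Ppp1r15a, Herpud1 (ER-associated degradation; 0.18, SE 0.0553), Sesn2 (0.19, SE 0.0928) and Ddit4 (0.20, SE 0.0927), both inhibitors of mTORC1 signaling, Atf5 and Cbs (transsulfuration; 0.39, SE 0.185). That median was -0.056 when Mock replicate 1 was left out, -0.060 when Pre-FACS replicate 3 was, and 0.11 when Mock replicate 3 was. The summed level of the targets fell from number 1 to number 3 in all 4 conditions. It was 9047, 8093 and 7926 TPM in Mock and 8814, 8012 and 7582 TPM in Pre-FACS libraries. Each Mock sum exceeded the Pre-FACS sum of its number. Leaving out 1 library also left the numbers unequal between the conditions. Sqstm1, the autophagy adaptor and the most abundant target, was 1132, 987 and 1133 TPM in Mock against 1036, 955 and 999.5 TPM in Pre-FACS libraries (0.12, SE 0.0606). Among targets of amino acid supply, named after their values were seen, Asns (asparagine synthetase) differed by 0.01 (95% interval -0.26 to 0.28), Psat1 (serine synthesis) by 0.02 (-0.17 to 0.21), Trib3, a pseudokinase that restrains ATF4, by 0.04 (-0.34 to 0.41) and Chac1 (glutathione breakdown) by 0.06 (-0.19 to 0.31). All 20 aminoacyl-tRNA synthetases had intervals between -0.29 and 0.26, with 11 higher and a median of 0.0025. Dars, of lowest p among them, differed by 0.10 (SE 0.0669). Gars was the most abundant of them at 729 ± 92.2 TPM in Mock against 721 ± 49.4 TPM in Pre-FACS libraries (SD, n = 3).

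The unfolded protein response shares its PERK branch with this pathway. Of 19 ER chaperones and its other targets, 12 were higher, with a median of 0.0096 that was 0.00014 without Pre-FACS replicate 1 and 0.048 without Pre-FACS replicate 3. Hspa5 (BiP), the main chaperone of the ER lumen, was 1408, 1383 and 1562 TPM in Mock and 1255, 1287 and 1333 TPM in Pre-FACS libraries (0.17, SE 0.0636, adjusted p = 0.997), and its cochaperone Dnajb9 was 34.2, 34.2 and 42.3 TPM against 31.4, 28.6 and 31.6 TPM (0.26, SE 0.112). Both had all Mock libraries above. Sdf2l1 (-0.14, SE 0.0833) and Derl1 (-0.05, SE 0.0523) had all Mock libraries below.

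**Figure D3:**
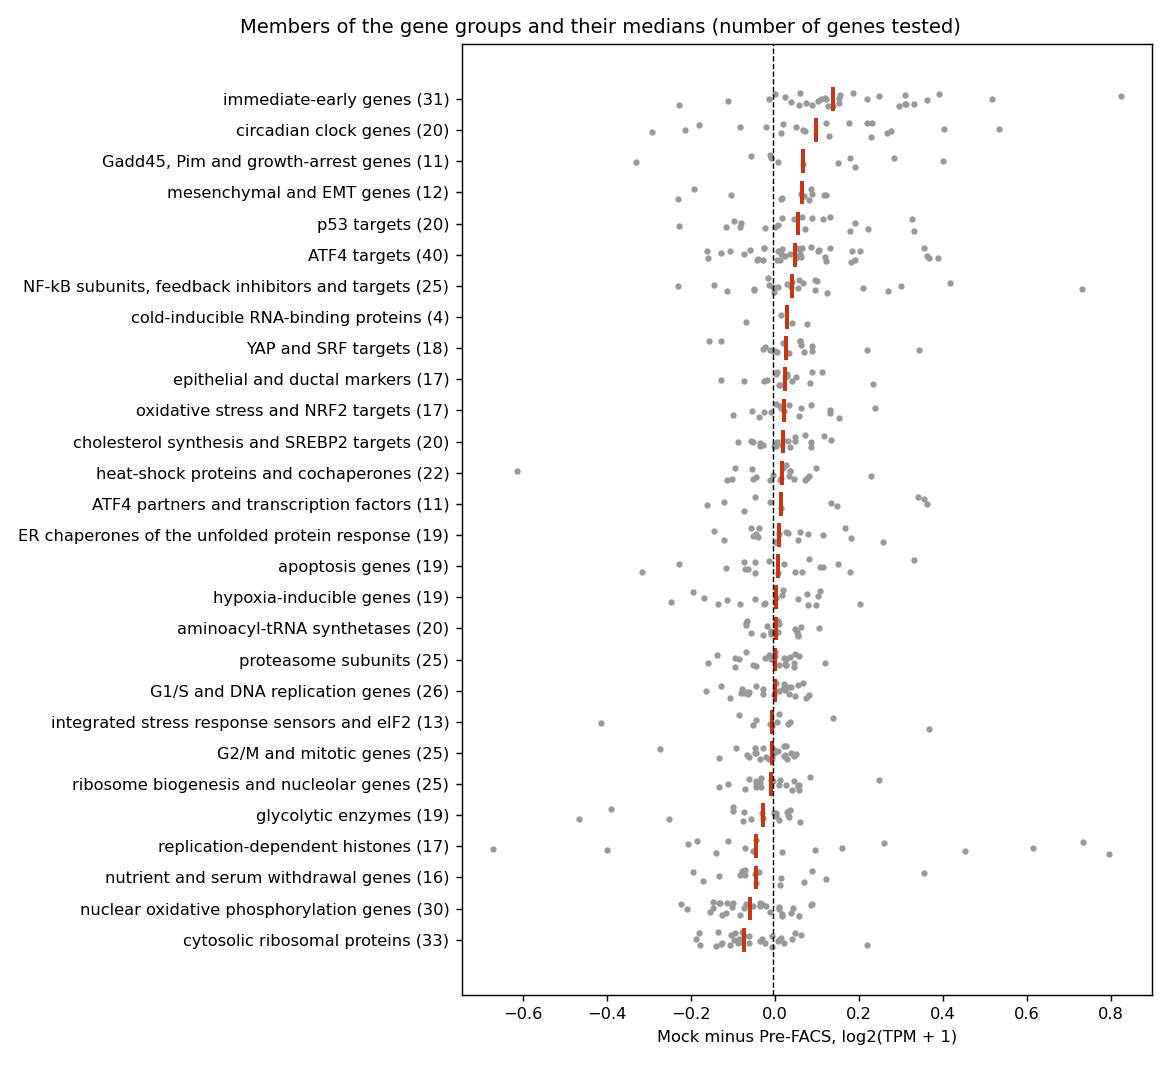
Mock minus Pre-FACS on the log2(TPM + 1) scale for the tested members (grey points) of 28 gene groups, with the median of each group as a red bar, the number tested in parentheses and the median of all genes as a dashed line. With all 12 libraries, immediate-early genes have the highest median (0.14) and cytosolic ribosomal proteins the lowest (-0.072). The latter was 0.062 without Pre-FACS replicate 1. Groups may share members.

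With all 12 libraries, though not without Mock replicate 3 (0.064, against 0.11 for ATF4 targets), immediate-early genes had the highest median of the groups. Of 31 tested, 28 were higher in Mock (90.3%, against 48.5% of all genes) and the median was 0.14. An unadjusted p under 0.05 was found for 5, all higher (against 2.23% of all genes), and 4 had all Mock libraries above (against 4.93%). Those were Klf10 (286, 288 and 330.1 TPM against 230.0, 249 and 256 TPM; 0.30, SE 0.0846, adjusted p = 0.931), Maff (71.6, 70.6 and 81.4 TPM against 48.8, 63.6 and 68.9 TPM; 0.31, SE 0.109), Klf6 (0.13, SE 0.0582) and Ier3 (0.10, SE 0.0527). Klf10, Klf6 and Maff are DNA-binding factors, and Ier3 is a survival regulator. None of the 31 passed the test in the model of 4 conditions (against 0.00822% of all genes).

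Within both conditions these genes moved with the library number, which was seen after the values were known. The library numbered 3 was the highest of its 3 in all 4 conditions for 21 of the 31 genes (67.7%), against 311 of all 12159 genes (2.56%). Nr4a1, Fosb and Dusp5 are named for this pattern. Nr4a1, an orphan nuclear receptor, was 214, 221 and 478 TPM in Mock and 152, 165 and 399.7 TPM in Pre-FACS libraries. Fosb, an AP-1 subunit, was 20.2, 16.2 and 40.1 TPM against 9.25, 8.09 and 27.9 TPM. Dusp5, a phosphatase of nuclear ERK, was 423, 425 and 632 TPM against 243, 310.1 and 511 TPM. In all 3 genes the library numbered 3 was far above the other two in each condition, so that the groups overlapped although each Mock library exceeded the Pre-FACS library of its number. Their differences were 0.39 (SE 0.367), 0.82 (SE 0.408) and 0.52 (SE 0.231). Cyr61, a matricellular protein and the most abundant of the list, was 3441, 3566 and 4956 TPM against 2899, 3109 and 4281 TPM (0.22, SE 0.161). The median of the list was 0.064 without Mock replicate 3, 0.088 without Pre-FACS replicate 1 and 0.24 without Pre-FACS replicate 3. Other lists moved with the number as well. The summed levels of ATF4 targets, aminoacyl-tRNA synthetases and replication-dependent histones fell from number 1 to number 3 in all 4 conditions. What the libraries of the same number share was not tested.

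**Figure D4:**
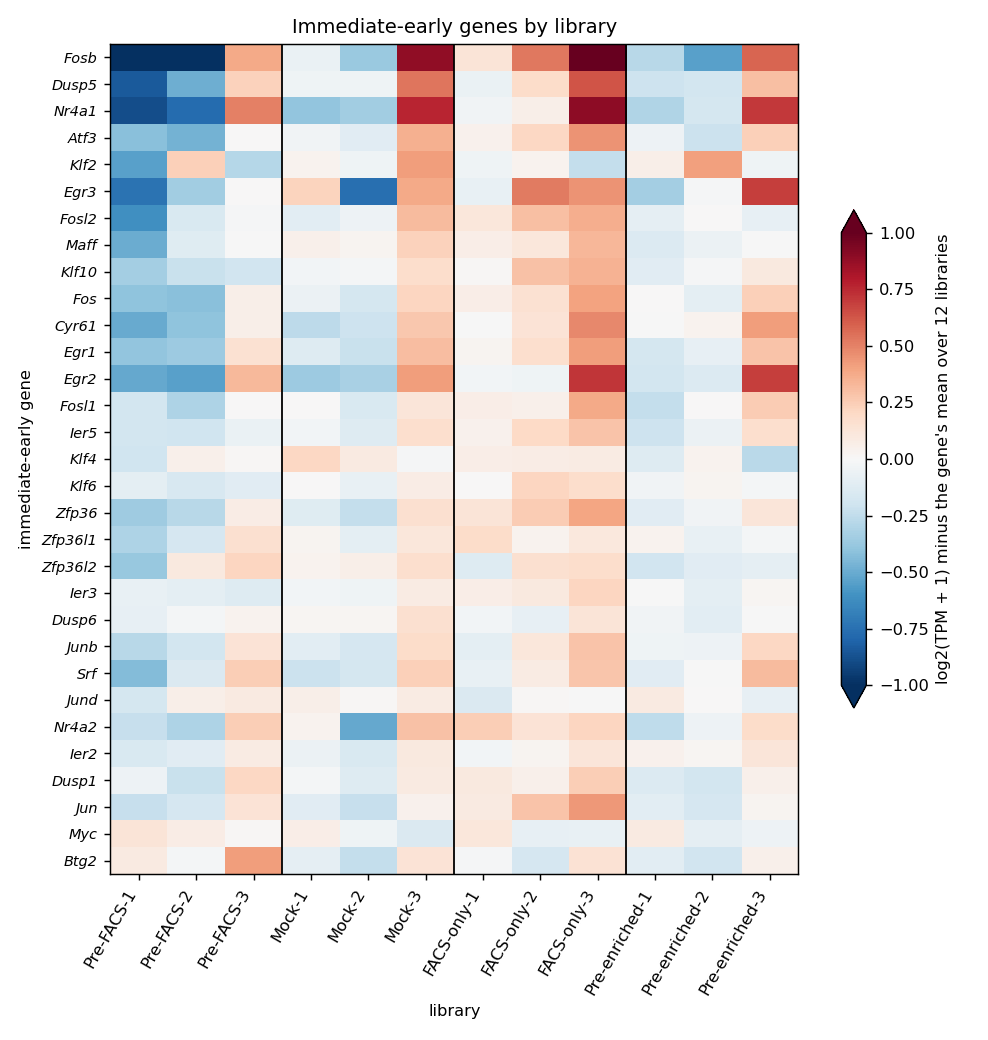
Heat map of 31 immediate-early genes (rows, ordered by their Mock minus Pre-FACS difference) in the 12 libraries (columns, grouped by condition), colored by log2(TPM + 1) minus the mean of the gene over the 12 libraries. Columns numbered 3 are the reddest of their condition for most genes, and the Pre-FACS columns numbered 1 and 2 are the bluest.

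Among NF-kB subunits, inhibitors and targets, 16 of 25 were higher, with a median of 0.040 that was 0.017 without Pre-FACS replicate 1, 0.022 without Mock replicate 3 and 0.068 without Mock replicate 2. All Mock libraries were above all Pre-FACS libraries for 3 genes (against 4.93% of all genes) and below for 0 (against 4.41%), and 4 had an unadjusted p under 0.05, all higher (against 2.23%). Besides Nfkbia and Tnfaip3 the third was the neutrophil chemokine Cxcl1, at 364, 332 and 439.8 TPM against 325, 295 and 317 TPM (0.27, SE 0.107, adjusted p = 0.997). Without Mock replicate 3, the highest of the 6, its difference was 0.16, and that of Nfkbia was 0.33. Cxcl2, a related chemokine of low level named after its values were seen, was 8.04, 4.34 and 12.2 TPM against 3.79, 6.38 and 2.95 TPM (0.73, SE 0.306), with overlapping groups. Cxcl5, the most abundant member, differed by 0.04 (SE 0.0529).

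In the growth-arrest list, which holds the Gadd45 and Pim families, 7 of 11 were higher with a median of 0.068, and that median was 0.033 without Mock replicate 1, 0.12 without Mock replicate 2, 0.034 without Pre-FACS replicate 3 and 0.0073 without the libraries numbered 3. Gadd45g, a stress sensor that binds MAP kinase kinase kinases, was 74.1, 71.6 and 78.6 TPM in Mock and 58.5, 58.1 and 67.4 TPM in Pre-FACS libraries (0.28, SE 0.0821, adjusted p = 0.936). The groups were apart, as they were for Pim1 and for the kinase Sgk1 (0.19, SE 0.0845), 3 of 11 genes against 4.93% of all genes with Mock above. Pim3, the most abundant, differed by -0.01 (SE 0.0435). Of 20 genes of the p53 list, which holds Trp53 itself beside its targets, 14 were higher with a median of 0.055, which was 0.021 without Pre-FACS replicate 2 and 0.035 without Pre-FACS replicate 1. Bbc3 (PUMA), an activator of apoptosis, was 41.7, 37.2 and 41.1 TPM against 34.6, 29.2 and 31.2 TPM (0.33, SE 0.118), and the kinase Plk2 was 186, 183 and 223 TPM against 161, 172 and 172 TPM (0.22, SE 0.0829). Both had groups apart, as had Sesn2 (against 4.93% of all genes with Mock above), and the difference of Plk2 was 0.13 without Mock replicate 3. Btg2, an antiproliferative gene and the most abundant of the list, lay the other way, at 314, 283 and 367 TPM in Mock against 357, 330 and 447 TPM in Pre-FACS libraries (-0.23, SE 0.111, adjusted p = 0.997), with overlapping groups. Cdkn1a (p21) and Mdm2, the canonical targets, named after their values were seen, differed by 0.01 (SE 0.0901) and 0.00 (SE 0.0734). Among 19 apoptosis genes 10 were higher, with a median of 0.0069; Bad, a pro-apoptotic BCL2 relative, was lower in every Mock library (-0.23, SE 0.0987), and Casp8 higher (0.11, SE 0.0668). Mcl1, an antiapoptotic BCL2 relative and the most abundant, differed by 0.18 (SE 0.0995), with overlap.

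Of 20 circadian clock genes 15 were higher, with a median of 0.098. An unadjusted p under 0.05 was found for 4, all higher (against 2.23% of all genes), and 4 had all Mock libraries above (against 4.93%). Beside Nr1d1 these were Per1, a light- and stress-responsive repressor, at 5.53, 3.98 and 5.20 TPM against 2.54, 3.34 and 3.32 TPM (0.53, SE 0.171), Nfil3 (0.23, SE 0.104) and Ciart (0.18, SE 0.085). Bhlhe40, the most abundant, was 447, 418 and 478 TPM against 381, 349 and 423 TPM (0.22, SE 0.0703), with overlap. Per2 differed by -0.21 (SE 0.155) and the activator Arntl (BMAL1) by 0.07 (SE 0.0934), both named after their values were seen. The median was 0.057 without Mock replicate 1, 0.064 without Pre-FACS replicate 1 and 0.16 without Mock replicate 2.

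No heat-shock or cold-response gene passed the test, which only 1 of all 12159 genes (0.00822%) did. Of 22 heat-shock proteins, their cochaperones and heat-shock factors, 13 were higher with a median of 0.017. The inducible Hspa1a was 2.25, 3.13 and 4.22 TPM in Mock and 4.50, 5.41 and 6.15 TPM in Pre-FACS libraries (-0.61, SE 0.19, adjusted p = 0.997), all Mock libraries being lower. Its near-identical copy Hspa1b, named after its values were seen, has reads that cannot be fully told apart from it and was at 32.4 and 33.7 TPM (-0.05, SE 0.09). Hsp90aa1 was higher in every Mock library by 0.08 (SE 0.046), and Hsp90ab1, the most abundant, differed by 0.03 (SE 0.0438). The cold-induced RNA-binding proteins Cirbp and Rbm3, also named after their values were seen, differed by -0.07 (95% interval -0.27 to 0.14) and 0.02 (95% interval -0.13 to 0.16). Of the cold-inducible list the splicing factor Srsf5, both the most abundant and of lowest p, differed by 0.08 (SE 0.0747).

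The medians of the metabolic lists lay between -0.046 and 0.021. Of 19 genes of the hypoxia list, which holds Hif1a itself, 10 were higher (median 0.0035); Pdk1, which restrains entry of pyruvate into mitochondria, differed by -0.17 (SE 0.0681) and Ankrd37 by -0.25 (SE 0.115), with all Mock libraries below, whereas Ddit4 and P4ha2 (0.08, SE 0.068) had them above, and the glucose transporter Slc2a1, the most abundant, differed by -0.03 (SE 0.0541). Of 19 glycolytic enzymes and lactate transporters 8 were higher, with a median of -0.028 that was -0.061 without Pre-FACS replicate 1, -0.013 without Pre-FACS replicate 2 and -0.00083 among genes averaging at least 5 TPM. Pfkfb3, which makes the activator of phosphofructokinase, was 15.6, 14.5 and 11.9 TPM against 19.4, 17.8 and 18.4 TPM (-0.39, SE 0.114, adjusted p = 0.936), with Mock below. Pkm, the most abundant at 4976 ± 36.0 against 4776 ± 191 TPM (SD, n = 3), was higher in every Mock library by 0.06 (SE 0.0503), and Hk1 was lower in every Mock library (-0.08, SE 0.0568). Of 20 genes of cholesterol synthesis and uptake and their regulation 13 were higher (median 0.019), and their most abundant, Fdps, was lower in each Mock library (-0.09, SE 0.0456). Of 16 genes of nutrient and serum withdrawal 6 were higher, with a median of -0.046 that was -0.082 without Mock replicate 1, 0.00094 without Mock replicate 2 and -0.022 without Mock replicate 3. The lowest p of that list was that of Sesn3 (0.36, SE 0.168), and its most abundant gene, Ccng2, differed by -0.07 (SE 0.0573). Of 17 NRF2 targets 12 were higher (median 0.021); Osgin1 differed by 0.24 (SE 0.0969), Gsr by 0.06 (SE 0.0511) and the ferritin chain Ftl1, the most abundant, by -0.03 (SE 0.0477). Of 25 proteasome subunits 13 were higher (median 0.0017), with Psmd11 at -0.16 (SE 0.06). Psmc4 (-0.07, SE 0.0475) had all Mock libraries below and Psmd2 (0.06, SE 0.0581) all above, and Psma2, the most abundant, averaged 504 TPM in Mock and 505 TPM in Pre-FACS libraries.

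Genes of respiration and of the ribosome had more lower than higher members. Of 30 nuclear genes of oxidative phosphorylation 9 were higher, with a median of -0.060, and all Mock libraries were below all Pre-FACS libraries for 4 (against 4.41% of all genes) and above for 0 (against 4.93%). Ndufb8, a subunit of complex I, was 302, 335 and 288 TPM in Mock and 390.0, 341 and 339 TPM in Pre-FACS libraries (-0.21, SE 0.076, adjusted p = 0.997). The other 3 were also complex I subunits, Ndufb5 (-0.15, SE 0.0821), Ndufs8 (-0.15, SE 0.0723) and Ndufv1 (-0.10, SE 0.0568). Atp5b, a subunit of ATP synthase and the most abundant of the list, differed by -0.01 (SE 0.0448). Pre-FACS replicate 1 was the highest of the 6 for Ndufb5, Ndufb8 and Ndufs8, and without it the median of the list was -0.0043. Of 33 cytosolic ribosomal proteins 9 were higher, with a median of -0.072, which turned to 0.062 without Pre-FACS replicate 1 and was -0.11 without Pre-FACS replicate 3. Rplp1 had 604 TPM in Pre-FACS replicate 1 and between 417 and 464 TPM in the other 5. Rplp0, the most abundant, differed by 0.01 (SE 0.0464). Ribosomal protein genes have many processed pseudogenes, so their reads may be shared. Of 25 genes of the ribosome biogenesis list, which also holds Myc, 11 were higher (median -0.0098), with the processing factor Rrp12 at 0.25 (SE 0.112), Dkc1 at 0.08 (SE 0.0732), Polr1b at -0.13 (SE 0.0742) and Bop1 at -0.06 (SE 0.0632) having groups apart. Npm1 (nucleophosmin), the most abundant, differed by 0.06 (SE 0.0479). The 13 genes of the mitochondrial genome were not analysed here.

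Proliferation genes had medians near 0, apart from loosely measured histones. Of 26 genes of G1/S and DNA replication 13 were higher (median -0.00028), and none had groups apart (against 4.93% of all genes with Mock above and 4.41% with Mock below). Ccnd1 (cyclin D1), both the most abundant and of lowest p, differed by -0.07 (SE 0.0576). Of 25 mitotic genes 9 were higher (median -0.0078), and 2 had all Mock libraries below (against 4.41% of all genes), the centromeric histone Cenpa (-0.13, SE 0.0592) and the spindle kinesin Kifc1, at 16.2, 17.4 and 17.3 TPM against 18.1, 21.1 and 23.1 TPM (-0.27, SE 0.127). Ube2c, the most abundant, differed by -0.02 (SE 0.0497). Of 17 replication-dependent histones 8 were higher (median -0.045, and 0.17 without Pre-FACS replicate 1), with Hist1h1d at 0.73 (SE 0.264) and Hist1h2bb, at 0.806 against 0.178 TPM, higher in each Mock library. Hist1h1c, the most abundant, differed by 0.10 (SE 0.168). These genes lack poly(A) tails and resemble each other, so their values are uncertain. The list of YAP and SRF targets, which holds Srf itself, had 12 of 18 higher (median 0.028); Ctgf, a matricellular relative of Cyr61, was 574, 590.5 and 553 TPM against 609.7, 661 and 608 TPM (-0.13, SE 0.0475) and Tagln2 differed by 0.06 (SE 0.0418), both with groups apart. Of 12 mesenchymal genes 9 were higher (median 0.066, and 0.040 without Pre-FACS replicate 1), with Vim at 1061 ± 40.2 against 999 ± 44.4 TPM (SD, n = 3), Fn1 at 0.08 (SE 0.0852) and Itgb1 at 0.06 (SE 0.0442).

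The same genes were read in the sorted cells, which share the 3 Pre-FACS libraries as their control, so the values are given side by side. FACS-only against Pre-FACS cells called 15 genes (0.123%), 12 higher (0.0987%) and 3 lower (0.0247%), and Pre-enriched against Pre-FACS cells called 6 (0.0493%), 2 higher (0.0164%) and 4 lower (0.0329%). These counts depended on the model and on single libraries. In FACS-only cells the count was 0 in limma without the trend. Dropping Mock replicate 1 gave 7 calls there and dropping Mock replicate 3 gave 24. For FACS-only libraries left out in turn the count was 23 (number 1), 5 (number 2) and 6 (number 3), whereas dropping the Pre-FACS library numbered 2 gave 7, the one numbered 3 gave 8, and dropping the Pre-enriched library numbered 1 gave 9. In Pre-enriched cells the count fell to 2 when the Pre-FACS library numbered 2 was dropped, to 1 when the one numbered 3 was, and also to 1 on dropping the Pre-enriched library numbered 1 or 3. Of the NF-kB list, Nfkbia differed from Pre-FACS by 0.42 in Mock and 0.64 in FACS-only cells, Tnfaip3 by 0.30 and 0.54, and Cxcl1 by 0.27 and 0.63. For the stress and clock genes, Pim1 differed by 0.40 and 0.66, Nr1d1 by 0.40 and 0.66, Gadd45g by 0.28 and 0.62, Plk2 by 0.22 and 0.47, Klf10 by 0.30 and 0.47, Bhlhe40 by 0.22 and 0.40, and Areg by 0.30 and 0.42. In Pre-enriched cells the same genes differed from Pre-FACS by 0.21 (Nfkbia), 0.05 (Tnfaip3), 0.20 (Cxcl1), 0.30 (Pim1), 0.25 (Nr1d1), 0.47 (Gadd45g), 0.11 (Plk2), 0.24 (Klf10), 0.19 (Bhlhe40) and 0.21 (Areg). Among them Gadd45g alone had a larger value there than in Mock (Pre-enriched minus Mock 0.19, 95% interval 0.02 to 0.36, limma adjusted p = 0.624). The nucleolar GTP-binding protein Gnl3 differed by 0.06 in Mock (95% interval -0.08 to 0.20) and by 0.38 in FACS-only cells, the first being 0.13 without Pre-FACS replicate 2 and 0.0047 without Pre-FACS replicate 1. The 3 lower genes were Tsc22d1 (-0.16 in Mock and -0.30 in FACS-only), Cdkn2a (-0.28 and -0.42) and Kifc1 (-0.27 and -0.69). In Pre-enriched cells Gnl3 differed from Pre-FACS by 0.36, Tsc22d1 by -0.16, Cdkn2a by -0.22 and Kifc1 by -0.82. Of the genes called in Pre-enriched cells, the linker histone Hist1h1b differed by -0.21 in Mock and -1.14 in Pre-enriched cells, the glycolytic enzyme Pgam1 by -0.10 and -0.37, Clca1 by -0.08 and -0.93, and Fam166a by 0.14 and 1.56. These Mock values depended on single libraries, and that of Fam166a also on the pseudocount, being 0.72 with a pseudocount of 0.1. Without Mock replicate 3 they were -0.04 for Hist1h1b, -0.17 for Clca1 and 0.03 for Fam166a, without Mock replicate 2 they were 0.02 for Clca1 and 0.24 for Fam166a, without Mock replicate 1 Hist1h1b was at -0.32, and without Pre-FACS replicate 1 Clca1 was at 0.01. Pre-FACS replicate 2 also mattered, since without it Hist1h1b was at -0.12 and Clca1 at -0.16.

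Whether sorted cells differed from held cells was tested directly. FACS-only against Mock libraries called 0 genes in limma (lowest adjusted p = 0.664, 684 genes or 5.63% at an unadjusted p under 0.05), and Pre-enriched against Mock called 0 (lowest adjusted p = 0.192 for Fam166a, 945 genes or 7.77%). The contrast of FACS-only with Mock was 0.22 for Nfkbia (95% interval 0.04 to 0.41, adjusted p = 0.845), 0.24 for Tnfaip3 (0.08 to 0.39, adjusted p = 0.775), 0.34 for Gadd45g (0.17 to 0.51, adjusted p = 0.693) and 0.32 for Gnl3 (0.18 to 0.46, adjusted p = 0.664). For 4 of the 15 genes this interval held 0, as for Areg at 0.13 (-0.02 to 0.27), Klf10, Cdkn2a and Atf4. Pre-enriched minus Mock was -0.20 for Nfkbia, -0.25 for Tnfaip3 and 0.30 for Gnl3, with adjusted p-values of 0.618, 0.475 and 0.254. These genes were picked by the contrast of FACS-only with Pre-FACS cells, and a gene called there and not in Mock is not shown to differ between the conditions.

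**Figure D5:**
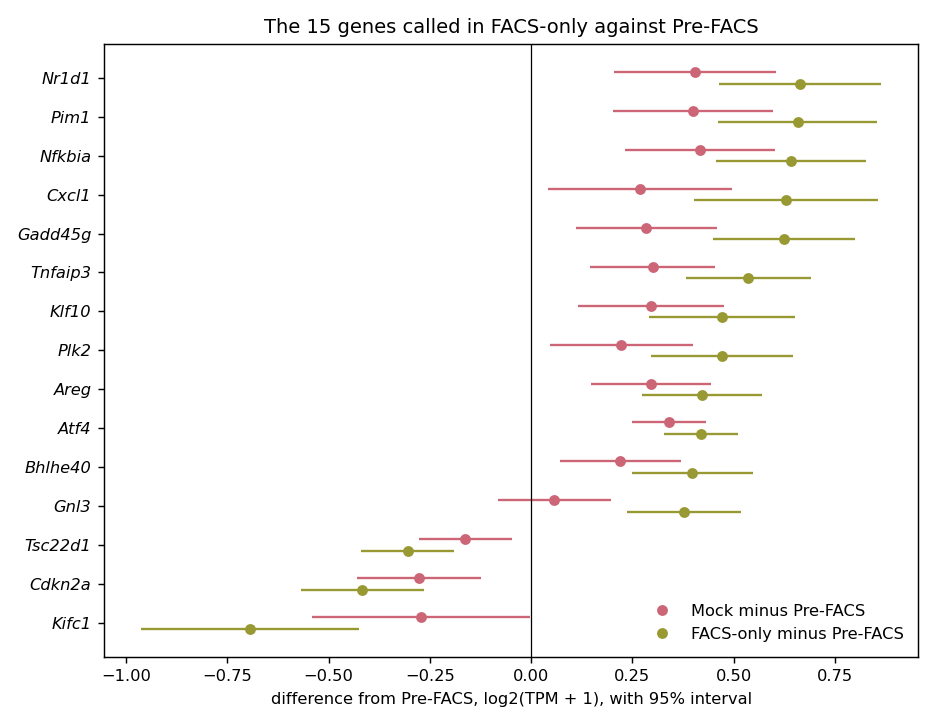
Differences from Pre-FACS on the log2(TPM + 1) scale with 95% limma intervals for the 15 genes called in FACS-only against Pre-FACS, in Mock (red) and FACS-only (olive) cells, which share the same 3 Pre-FACS libraries. For Atf4 the pair is 0.34 and 0.42, and for Gnl3 it is 0.06 and 0.38; being called, the FACS-only values were selected for size.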

How the data were processed

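The authors aligned reads of polyA libraries (SMART-Seq v4, 75 bp paired-end, NextSeq 500) to mm10 with ERCC92 using STAR, counted them per gene with featureCounts, normalized by the upper quartile in EDASeq and deposited TPM with effective lengths. Normalization across libraries removes a global change in RNA content, and the amplification of cDNA adds spread to low genes. The gene annotation used is not given in the sources used here; 96.4% of tested symbols were found in GENCODE M21 for positions. The deposited TPM were put on the log2(TPM + 1) scale, and genes at 1 TPM or more in at least 3 of 12 libraries were kept. A single limma model (3.58.1, R 4.3.3, empirical Bayes with a trend) with 4 conditions was fitted to 12 libraries. The study reports its own differential expression analysis between all processing conditions of PD798, with very few genes different. It does not name the test used. The fit was tested on simulated data. The depth of each library is unknown, since TPM keeps none and the study states only a minimum for all samples. Columns left unused numbered 0. The 31 libraries of the input series were not used here.

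Named genes are those called, the 10 of lowest p in each direction, per gene group the lowest p, the most abundant and members with groups apart, and those called in FACS-only against Pre-FACS; genes called in Pre-enriched against Pre-FACS were added later, and others are marked where they are first described. The comparison, the 33 gene lists and the rules were chosen with earlier results of these data known. Alternatives were another pseudocount, filter, scaling, variance model, replicate block, threshold and set of libraries. One allele of the line is not reported here.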

Additional observations from a re-analysis of the deposited data

How the results depend on the processing

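Atf4 kept its direction in every alternative run. Its difference was 0.34 with adjusted p = 0.358 in limma without the trend and 0.34 with 0.175 when only the libraries of both conditions entered, 0.35 with 0.225 without the 4 libraries numbered 3 (chosen after seeing the data), and between 0.33 and 0.36 when each library was left out. Mock against Pre-FACS then called 0 genes in each of those 3 settings and between 0 and 1 with a library left out. FACS-only against Pre-FACS called 0 without the trend, 31 at a threshold of 0.1 and between 5 and 24 with a library left out. Pre-enriched against Pre-FACS called 14 with robust empirical Bayes, 13 at a threshold of 0.1, 2 without the libraries numbered 3 and between 1 and 7 with a library left out. FACS-only against Mock called 0 whichever library was left out. Pre-enriched against Mock called 1 without the filter, 1 without the trend, 4 with only the libraries of both conditions, and 0 with any library left out. The causes were not tested.

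The sources used here do not say whether the replicate numbers pair libraries. The model of 4 conditions left the number out. Some gene groups followed the number in all 4 conditions. The summed level of aminoacyl-tRNA synthetases fell from number 1 to number 3 in each. It was 5654, 5242 and 4818 TPM in Mock and 5449, 5275 and 4888 TPM in Pre-FACS libraries. Deviations of same-numbered Mock and Pre-FACS libraries correlated at 0.0776, 0.0035 and 0.1096 across genes, although 5 of 6 libraries were closest to their own number, a hint from the data and not the design. With the number as a replicate block, Mock against Pre-FACS called 7 genes, all higher in Mock (Atf4, Nfkbia, Csrnp1, Atf3, Dusp5, Gprc5a and Cyr61), FACS-only against Pre-FACS 77, Pre-enriched against Pre-FACS 37, FACS-only against Mock 4 and Pre-enriched against Mock 2.

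Atf4 kept its call in 15 of 22 alternatives. For 31 other genes (the rest of the 20 of lowest p and those called in a sorted condition against Pre-FACS), of 678 values under the alternatives 668 kept their side of the threshold and moved by no more than the standard error of the difference, which is wide for some genes, 9 moved by more and 1 crossed the threshold (Nfkbia with the block). The medians of immediate-early genes (0.064 to 0.24), clock genes (0.057 to 0.16) and nuclear oxidative phosphorylation genes (-0.084 to -0.0043) kept their sign in 18 of 18. With each library left out, so did those of ATF4 partners, ER chaperones, cold-inducible, NF-kB, p53, growth-arrest, glycolytic, mesenchymal and acinar or endocrine genes; the medians of the other groups turned sign without at least 1 library. Their ranges included -0.037 to 0.040 for eIF2 genes, -0.037 to 0.066 for tRNA synthetases, -0.00069 to 0.022 for heat-shock genes, -0.016 to 0.032 for hypoxia-inducible genes, -0.0087 to 0.056 for cholesterol synthesis, -0.0014 to 0.048 for NRF2 targets, -0.016 to 0.054 for YAP and SRF targets, -0.11 to 0.17 for histones, -0.056 to 0.017 for G1/S genes, -0.060 to 0.022 for mitotic genes, -0.014 to 0.0039 for ribosome biogenesis, -0.030 to 0.034 for proteasome subunits, -0.048 to 0.070 for apoptosis genes and -0.010 to 0.041 for epithelial markers. With 3 libraries per condition and no depth, genes under 10 TPM are measured too loosely to show differences under about 0.5.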

Other observations

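Among the 20 most abundant genes of the line, none passed adjustment in the model of 4 conditions (against 0.00822% of all genes). With the number as a replicate block, Cyr61 passed (limma adjusted p = 0.0265). Spp1 (osteopontin), a secreted phosphoprotein, was 13433 TPM in Mock and 13205 TPM in Pre-FACS libraries on average (0.02, SE 0.0436), and Clu (clusterin), a secreted chaperone, 11827 and 11957 TPM (-0.02, SE 0.0459). The largest difference of the 20 was that of Cyr61, at 3988 against 3430 TPM (0.22, SE 0.161), with overlapping groups. The translation elongation factor Eef1a1 had the lowest p, at 2788 against 2541 TPM (0.13, SE 0.0453, limma adjusted p = 0.997), with all Mock libraries above. The actin-binding profilin Pfn1 had all Mock libraries below, at 2607 against 2830 TPM (-0.12, SE 0.0523). Its groups were barely apart, with 2720.87 TPM in Mock replicate 2 and 2721.73 TPM in Pre-FACS replicate 2, and Pre-FACS replicate 1 was the highest at 3034 TPM.

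Areg was set beside the rest of the EGF family after its value was seen. Of 13 ligands, receptors and shedding proteases, 12 were tested and 7 were higher in Mock, with a median of 0.026. Ereg (epiregulin) was 25.7, 21.9 and 25.8 TPM in Mock and 20.4, 18.4 and 18.8 TPM in Pre-FACS libraries (0.33, SE 0.105), with groups apart, and Hbegf was 210.2, 193 and 246 TPM against 186, 156 and 194 TPM (0.27, SE 0.095), with overlap. Tgfa differed by -0.07, Btc by -0.01, the receptor Egfr by -0.21 and the protease Adam17 by 0.01. None passed adjustment over all genes, which 0.00822% of all genes did.

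The genes most raised in the libraries numbered 3 of all 4 conditions, among those at 10 TPM or more, were Arc, Nr4a1, Egr2 and Fosb, the first of which was not in the immediate-early list. Arc was 67.5, 71.7 and 149 TPM in Mock and 64.2, 62.0 and 146 TPM in Pre-FACS libraries. Its library numbered 3 exceeded the next by at least 0.89 on the log2(TPM + 1) scale in each condition. Hes1, a target of Notch signaling, was 851, 816 and 1158 TPM against 789.7, 793 and 1200.4 TPM. This pattern was seen in the data and its origin was not tested.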
